A study of Mus musculus with 6 samples.

Results

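The BTG and TOB family was examined through 4 genes, Btg1, Btg2, Tob1 and Tob2, chosen by their Ensembl IDs from the 7282 gene IDs linked to at least 1 tag. Btg1 and Btg2 are the genes deleted in the study. The libraries came from naive CD4 T cells of mice, sorted by surface markers as TCRb+CD4+CD25- cells with high CD62L and low CD44. WT libraries came from littermate controls with floxed alleles (Btg1f/f Btg2f/f), and DKO libraries from mice that also carried CD4-Cre (Btg1f/f Btg2f/f-CD4-Cre), with 3 libraries per genotype. All 6 libraries thus share the floxed alleles and differ in the Cre, which the Cd4 promoter drives in T cells. No age is given in the labels. Cells of 2 pairs of mice are mentioned in the growth protocol, beside 3 libraries per genotype. Some libraries may therefore share mice, and which ones is not given in the labels, so that each n = 3 below counts libraries, and the spread and p-values over them may be partly technical.

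BTG and TOB proteins share an N-terminal domain that binds the CAF1 deadenylase subunits of the CCR4-NOT complex. That complex shortens the poly(A) tail of an mRNA, which is the usual first step of its decay. TOB1 and TOB2 also bind the cytoplasmic poly(A)-binding protein, and members of the family restrain proliferation, in T cells as in other cells.

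The mTAIL-seq assay joins a hairpin adaptor to RNA 3' ends, so that sequencing covers the end of the transcript and its poly(A) tail. Reads are collapsed into tags, and a tag counted as tailed when its tail measured 5 nt or more. The libraries held between 3943 and 24024 tailed tags with a gene link, and levels are given in CPM, the number of tags scaled to 1000000 of these. The libraries numbered 3 were the smallest of each genotype, and 24.2% and 28.0% of their linked tags were untailed, against 5.99% to 8.04% in the others. They shared 85 to 219 tag names with each library numbered 1 or 2, whereas no names were shared within those 4 libraries or between the libraries numbered 3. The cell type was not checked against markers, because the gene names used here are paired with no Ensembl ID.

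In the GRCm38.p6 assembly, RefSeq places Btg1 (ENSMUSG00000036478.7) at chr10:96617001-96622813 on the plus strand and Btg2 (ENSMUSG00000020423.6) at chr1:134074865-134079155 on the minus strand. Tob1 (ENSMUSG00000037573.5) lies at chr11:94209842-94215495 on the plus strand and Tob2 (ENSMUSG00000048546.7) at chr15:81848270-81858326 on the minus strand. The deposited tags carry no map position, so where in a gene a tag ended, in the 3' UTR or upstream, was not analysed here. Neither do the labels say which exons were floxed. A tag from outside the deleted part could remain in DKO cells and would say nothing about the deletion.

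The 4 genes had 44 linked tags in all, of which 36 were tailed, and each of the 44 was linked to a single gene ID. Every statement below rests on these few tags. Of the 36 tailed tags, 21 consisted of 1 read and none had more than 5 reads. The tail strings below, as listed 5' to 3' in the files, show the tags on which the account of each gene turns, with bases other than A in capitals. A listed string holds at most 100 bases, whatever the measured tail.
Btg1, 115 nt in WT replicate 1, and 112 nt in WT replicate 2 and DKO replicate 1: aaaaaaaaaa
Btg1, 29 nt in WT replicate 3: Gaaaaaaaaaaaaaaaaaaaaaaaaaaaa
Btg2, 46 nt in WT replicate 1: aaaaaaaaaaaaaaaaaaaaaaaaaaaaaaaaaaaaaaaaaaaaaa
Btg2, 27 nt in WT replicate 3: aaaaaaaaaaaaaaaaaaaaaaaaaaa
Tob1, 57 nt in WT replicate 1: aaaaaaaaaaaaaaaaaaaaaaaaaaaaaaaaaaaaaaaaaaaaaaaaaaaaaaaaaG
Tob1, 17 nt in WT replicate 2: aaaaaaaaaaaaaaaaa
Tob1, 133 nt in DKO replicate 2: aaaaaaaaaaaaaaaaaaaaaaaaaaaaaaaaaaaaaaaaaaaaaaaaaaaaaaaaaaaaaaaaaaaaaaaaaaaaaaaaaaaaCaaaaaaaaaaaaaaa

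The first comparison asked whether 3' ends of the deleted genes were still seen in DKO cells. Btg1, an antiproliferative gene known for high expression in resting lymphocytes, had 3, 1 and 1 tailed tags in WT replicates 1, 2 and 3, and 1, 0 and 0 in the DKO replicates. These are 177, 87.8 and 139 CPM in WT, and 48.4, 0 and 0 in DKO. Every WT library lay above every DKO library, although the DKO value of replicate 1 rests on 1 tag. The order also rests on the zeros of DKO replicates 2 and 3, where a floor of 3 tags corresponds to 125 and 761 CPM, above 1 and all 3 of the WT values, respectively. Less RNA per cell and fewer cells of a type cannot be told apart in such bulk libraries. The WT mean was 135 ± 44.7 CPM (SD, n = 3) and the DKO mean 16.1 ± 27.9 CPM (SD, n = 3). The exact permutation test gave a two-sided p of 0.1, the smallest that 3 against 3 libraries allow. Of 2028 gene IDs with 5 or more tailed tags over the 6 libraries, 75 (3.70%) likewise had every DKO library below every WT library, a minimum chosen after seeing the data.

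Counting error alone leaves the size of the Btg1 difference open to a wide range. Over the pooled libraries, 5 of 35516 tailed tags in WT and 1 of 48641 in DKO came from Btg1, a WT-to-DKO ratio of 6.85 with a 95% exact (conditional binomial) interval of 0.766 to 324. The interval covers counting error only, and it includes a ratio of 1. In edgeR's quasi-likelihood test without a filter on low counts, Btg1 had a log2 change of -2.26 (SE 1.40, adjusted p = 0.64), and 0 of 6469 gene IDs (0%) were called, with 154 at an unadjusted p under 0.05. The SE of a log2 change was derived as its absolute size divided by the square root of the test's F statistic. Neither Btg1 nor any other of the 4 genes was among the 170 gene IDs that pass edgeR's filter, of which 0 were called by edgeR (0%, 12 at an unadjusted p under 0.05) and 0 by DESeq2 (8 unadjusted).

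With untailed tags included, Btg1 had 4, 1 and 2 linked tags in WT and 1, 0 and 1 in DKO. The genotypes then overlapped, with 219, 80.8 and 201 CPM of linked tags for WT against 45.0, 0 and 192 for DKO (exact permutation p = 0.2). The DKO value of 192 is 1 untailed tag of 4 reads in replicate 3, the library with the fewest tags. An untailed Btg1 tag in WT replicate 1 was made of 25 reads, the most of any tag of the 4 genes.

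The tailed Btg1 tag left in DKO had a particular form. Its tail was measured at 112 nt, yet the listed string held 10 A, as shown above. The same string was listed for the Btg1 tags of 115 nt in WT replicate 1 and 112 nt in WT replicate 2. These were all 3 of the Btg1 tails of 100 nt or more, whereas none of the 10 such tails of the other genes had it. Over all tailed, gene-linked tags of 100 nt or more, 244 of 18238 (1.34%) were listed with exactly this string. Without these 3 tags, a choice made after seeing the data, Btg1 had a mean of 85.8 CPM in WT and no tailed tag in DKO (exact permutation p = 0.4). Whether these tags end at the same place in the gene was not tested.

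**Figure D1:**
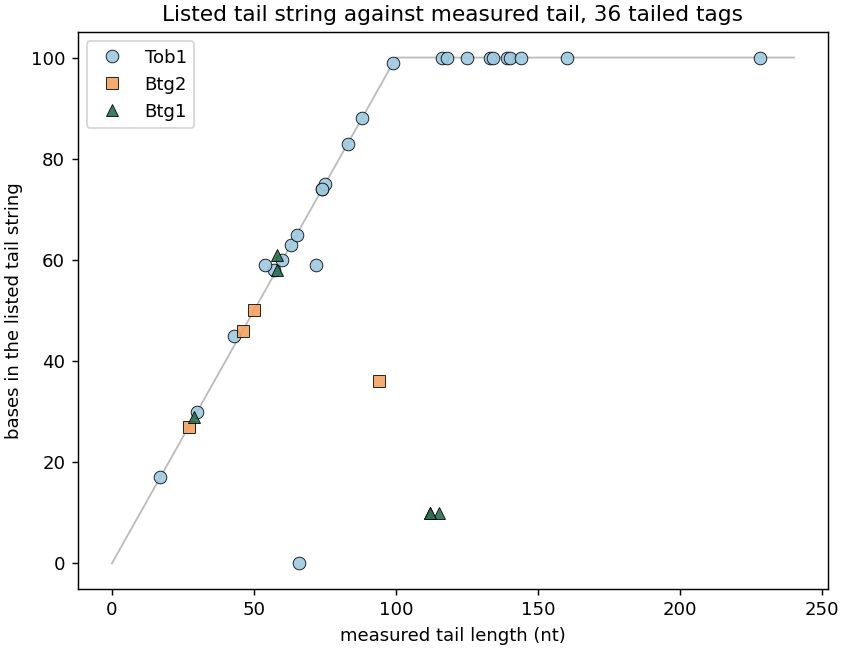
Bases in the listed tail string against the measured tail length in nt, one point for each of the 36 tailed tags, with the line on which the string equals the tail up to the limit of 100 bases. The 3 Btg1 tags of 112, 112 and 115 nt lie far below the line at 10 bases, and the pair at 112 nt is drawn on one spot.

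Strings well short of the tail were not rare in these libraries. The string was at least 20 bases shorter than the tail, capped at 100 nt, in 22.1% of all tailed, gene-linked tags. Among the members this held for the 3 Btg1 tags of 6, for 1 Btg2 tag of 4 (94 nt, 36 bases) and for 1 Tob1 tag of 26 (66 nt, 0 bases).

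Btg2, the second deleted gene, which is also a p53 target, was seen in WT libraries and in no DKO library. It had 2, 0 and 2 tailed tags in WT replicates 1, 2 and 3, which are 118, 0 and 279 CPM, and 0 in each DKO replicate. WT replicate 2 was thus level with the DKO libraries (exact permutation p = 0.4). The mean was 132 ± 139.9 (SD, n = 3) CPM in WT, and it was 59.0 without WT replicate 3. The pooled WT level was 113 CPM (95% exact interval 30.7 to 288), against 0 in DKO, where a floor of 3 tags corresponds to 61.7 CPM. The 95% exact interval of the pooled WT-to-DKO ratio of tailed tags began at 0.904 and so included 1. One more Btg2 tag, untailed and of 2 reads, was linked in WT replicate 3, giving 5 linked tags in WT and 0 in DKO. For these linked tags the interval began at 1.19, above 1, for counting error alone, while the libraries of the genotypes still overlapped (exact permutation p = 0.4). In edgeR without the filter, Btg2 tailed tags had an unadjusted p of 0.033 and an adjusted p of 0.64. The unadjusted edgeR p depended on the setting. It was 0.024 with library totals alone, 0.209 with a replicate block and 0.156 without both libraries numbered 3.

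The second comparison asked whether the TOB genes, the paralogs left intact, had more tags in DKO. Tob1 had the most tags of the family, with 3, 4 and 0 tailed tags in WT and 6, 13 and 0 in DKO. These are 177, 351 and 0 CPM in WT and 290.2, 541 and 0 in DKO. DKO exceeded WT by 113 CPM within number 1 and by 189.8 within number 2, while both libraries numbered 3 had no Tob1 tag. The genotypes overlapped, since DKO replicate 1 lay below WT replicate 2.

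Tob1 averaged 176 ± 176 CPM (SD, n = 3) in WT libraries and 277 ± 271 CPM (SD, n = 3) in DKO libraries, and the difference of 101 did not exceed the spread of either genotype (exact permutation p = 0.7). In the pooled libraries the DKO-to-WT ratio was 1.98, with a 95% exact interval of 0.798 to 5.58 from 7 and 19 tags. With untailed tags the counts were 7 and 22 and the ratio 2.41 (0.994 to 6.68). In the libraries numbered 3, which had no Tob1 tag, the floor of 3 tags corresponds to 418 CPM in WT replicate 3 and 761 in DKO replicate 3. Each floor lies above the Tob1 values of the other libraries of its genotype. Whether depth accounts for these zeros was not tested, and these libraries also held more untailed tags. The two-sided 95% exact intervals of these zeros, drawn in the plot of CPM by library, reach higher, to 514 and 935 CPM. Without DKO replicate 2 the difference turned to -31 CPM. It was 13.0 without WT replicate 3, 188.6 without WT replicate 2 and 239.6 without DKO replicate 3, so that single libraries set its size.

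In edgeR without the filter, Tob1 had a log2 change of 0.94 (SE 0.84, adjusted p = 0.64), beside a median of 0.54 over all 6469 gene IDs. The 10 most-tagged IDs took 37.3% to 39.3% of gene links in WT and 27.3% to 31.1% in DKO, and the part of this in the Tob1 value was not tested. With edgeR's TMM library sizes the Tob1 difference was 88.9 CPM.

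Tob2 had no tailed tag in any library. Over the pooled libraries the floor of 3 tags corresponds to 84.5 CPM in WT and 61.7 in DKO, and the 95% exact intervals reach 104 and 75.8 CPM. The single Tob2 tag was untailed, of 6 reads, in DKO replicate 3. A change in Tob2 was therefore not detectable at this depth.

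**Figure D2:**
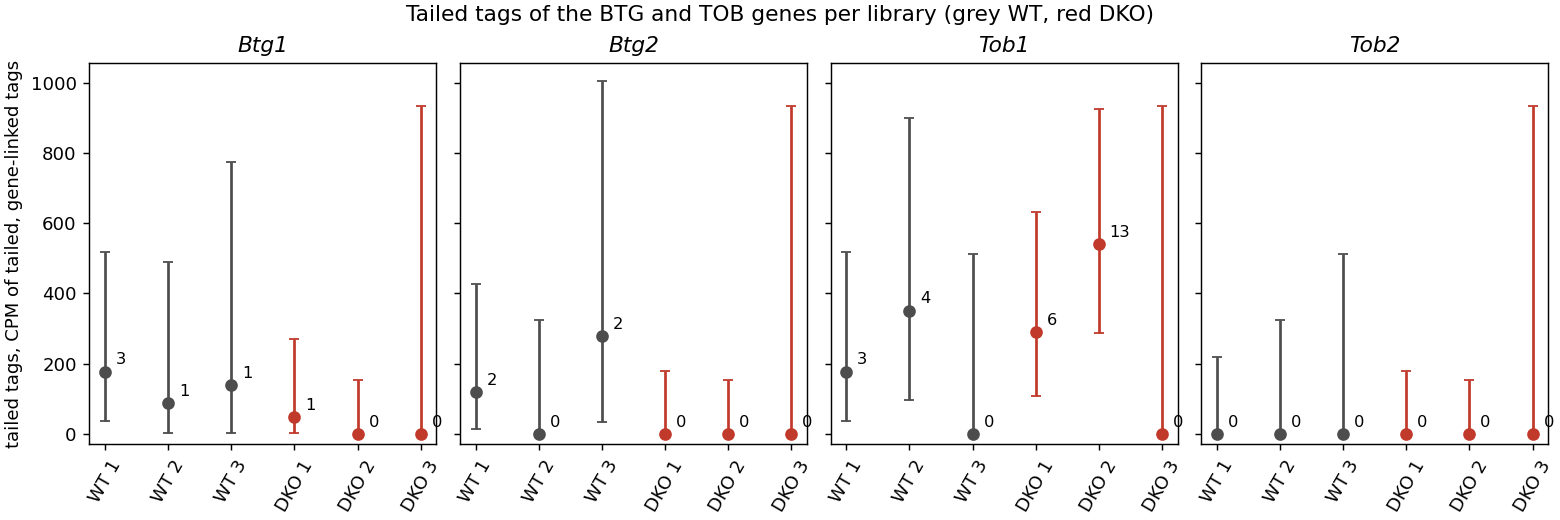
Tailed tags, as CPM of tailed, gene-linked tags, for the 4 genes in each library (WT grey, DKO red), with 95% exact intervals for counting error and the number of tags beside each point. Btg1 lies higher in the 3 WT libraries, Btg2 is at 0 in all DKO libraries, and the intervals overlap throughout.

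Within the family, the share of Btg1 and Btg2 among the pooled tailed tags was lower in DKO. This share does not depend on library scaling, but it depends on the Tob1 tags as much as on those of the deleted genes. The pooled intervals cover counting error only, and DKO replicate 2 alone gave 13 of the 20 DKO tags. Btg1 and Btg2 gave 9 of 16 tailed family tags in WT, 56.2% with a 95% exact interval of 29.9 to 80.2%, and 1 of 20 in DKO, 5.0% (0.127 to 24.9%). By library they gave 5 of 8, 1 of 5 and 3 of 3 in WT, and 1 of 7 and 0 of 13 in DKO replicates 1 and 2, with no tailed family tag in DKO replicate 3. Every WT share was thus above both DKO shares, at 20% in WT replicate 2 against 14.3% in DKO replicate 1 where they came closest. The exact permutation p over these 5 libraries was 0.2, the smallest they allow. With untailed tags the shares overlapped, since DKO replicate 3 held 1 Btg1 and 1 Tob2 tag (exact permutation p = 0.2).

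The order of the 4 genes by tailed tags was set by few counts. In WT, Tob1 had 7 tags, Btg1 5, Btg2 4 and Tob2 0, and the 95% exact intervals of the first 3, 79.2 to 406, 45.7 to 329 and 30.7 to 288 CPM, overlapped. In DKO, Tob1 (19 tags, 235 to 609.9 CPM) lay above Btg1 (1 tag, 0.521 to 115 CPM), and Btg2 and Tob2 were at 0. One 3' end is read per molecule, so these levels were not divided by transcript length.

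The third comparison concerned the tails of the family's own mRNAs. Btg1 tails measured 58, 58 and 115 nt in WT replicate 1, 112 nt in WT replicate 2, 29 nt in WT replicate 3 and 112 nt in DKO replicate 1. Btg2 tails measured 46 and 94 nt in WT replicate 1 and 27 and 50 nt in WT replicate 3. The shortest tails of both genes came from WT replicate 3, whose tails were short in general (median 45 nt over all tailed tags, against 56 to 69 nt in the other libraries). With no Btg2 tail and 1 Btg1 tail in DKO, no comparison of genotypes was possible for either gene.

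Tob1 tails measured 43, 57 and 139 nt in WT replicate 1 and 17, 74, 75 and 160 nt in WT replicate 2. In DKO replicate 1 they measured 54, 63, 72, 83, 88 and 99 nt. The 13 tails of DKO replicate 2 ran from 30 to 228 nt with a median of 118 nt, and 8 of them were 100 nt or longer. The other 5 measured 30, 60, 65, 66 and 74 nt, so that the tails of the DKO libraries overlapped, although none of DKO replicate 1 reached 100 nt. The genotypes overlapped widely as well.

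The mean Tob1 tail was 79.7 nt ± 29.9 (SE over 3 tags) and 81.5 nt ± 29.5 (SE over 4 tags) in WT replicates 1 and 2. It was 76.5 nt ± 6.81 (SE over 6 tags) and 110.2 nt ± 14.2 (SE over 13 tags) in DKO replicates 1 and 2. DKO minus WT was thus -3.17 nt within number 1 and 28.7 nt within number 2, beside -2.45 and 8.62 nt for the means of all tailed, gene-linked tags. Only DKO replicate 2 reached the 10 tailed tags set as the minimum for a test, so the difference was not tested. The mean difference of 12.8 nt over both numbers moved both ways with how it was taken. It was 32 nt by medians, 23.9 nt with each tag weighted by its reads and 20.5 nt by geometric means, and 29.6 nt without DKO replicate 1. It was -0.72 nt with untailed tags counted at 0 and -4.08 nt without DKO replicate 2.

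Only DKO replicate 2, where Tob1 had the most tags, held enough of them for a rank in mean tail. In that library Tob1 ranked 18th from the top among the 332 IDs that had 10 or more tailed tags. The rank rests on 13 Tob1 tags of that library and has no interval. There 61.5% of Tob1 tails (95% exact interval 31.6 to 86.1%) were 100 nt or longer, against 27.8% of all tailed, gene-linked tags. In DKO replicate 1 the shares were 0 of 6 (up to 45.9% by the same interval) and 20.4%. The 2 DKO libraries therefore do not give the same picture of Tob1, and the WT libraries, with 1 of 3 and 1 of 4 such tails, hold too few tags to set beside them.

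**Figure D3:**
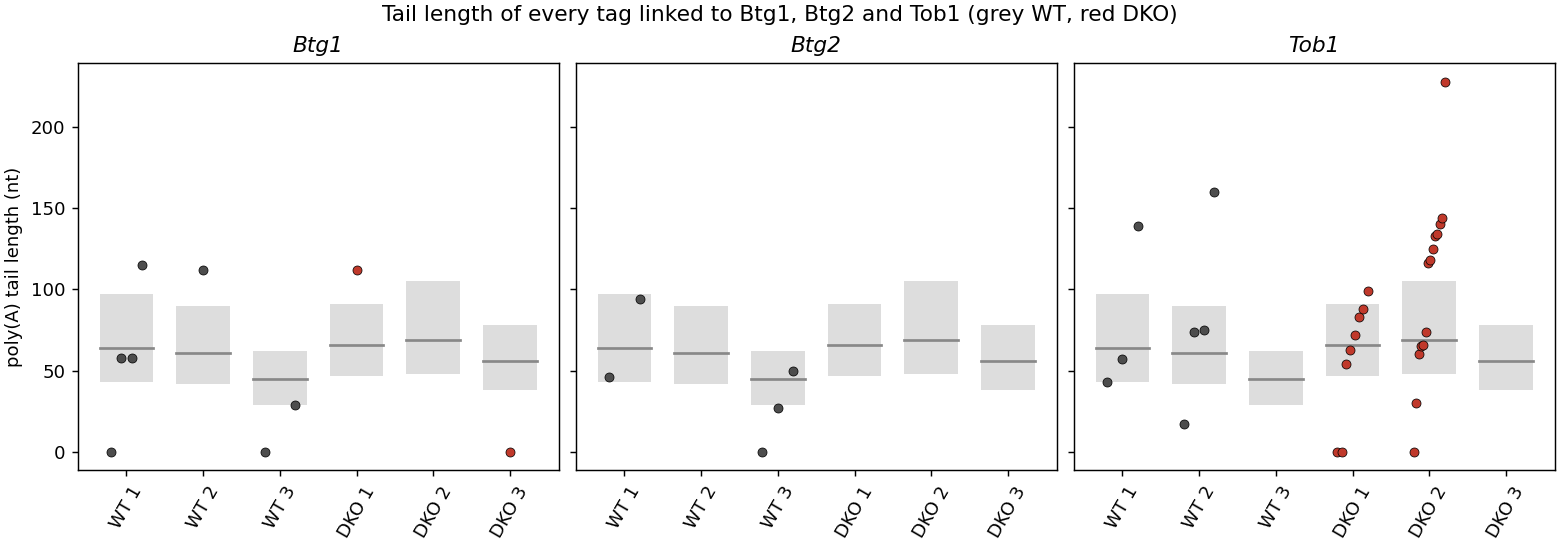
Tail length in nt of every tag linked to Btg1, Btg2 and Tob1 in each library (WT grey points, DKO red points, untailed tags at 0), over the median (line) and middle range from the first to the third quartile (grey box) of all tailed, gene-linked tags of that library. In DKO replicate 2, 8 of 13 Tob1 tails lie at 116 nt or above, beyond the box.

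Untailed tags and added bases were also few. Of 14 tags linked to Btg1 or Btg2, 4 were untailed, and 3 of these came from the libraries numbered 3. In WT and DKO replicate 3, 28.0% and 24.2% of all linked tags were untailed, against 5.99% to 8.04% in the others. Of 29 Tob1 tags, 3 were untailed, all in DKO replicates 1 and 2. A base added beyond the tail, as left by terminal nucleotidyltransferases, was listed for 1 of the 36 tailed tags, the G at the end of the 57 nt Tob1 tail of WT replicate 1 shown above. Over all tailed, gene-linked tags, an added G was listed for 0.32% to 0.44% by library. The C in the 133 nt Tob1 tail of DKO replicate 2 and the G that opens the 29 nt Btg1 tail of WT replicate 3 were not listed as added bases. Both tags consisted of 1 read.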

How the data were processed

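Per the labels' protocols, about 500 ng of total RNA went into each mTAIL-seq library. The submitters' processing notes name GSNAP, bedtools, mm10 and GRCm38. No source used here gives the tail caller or the annotation release. The deposited tables of mapped tags hold a whole-number count of reads and a tail length in nt per tag, and further deposited tables link tags to gene IDs. For the 4 genes, tailed tag counts recomputed from them equalled those of the deposited gene tables in 24 of 24 library values, with a missing deposited count taken as 0. For each value of 0, Tob2 in all libraries included, no deposited count was there to compare.

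The 4 genes were taken by ID, and the members and gene lists were chosen with earlier results of these data known. The named genes are the 4 members; the rule for genes of like pattern and for the deadenylation list applies to genes that pass the count filter, and none of the 4 did. Of 49997 RefSeq rows, 0 carry an Ensembl ID, so the deadenylation and decay list and the cell type markers could not be matched and are not analysed here, nor was limma run on tail lengths, since no member had 10 tailed tags in every library. Tags were counted under every linked ID. Library values were compared by two-sided exact permutation tests (SciPy 1.17.1, Python 3.11.15, pandas 2.3.3), unadjusted. Tag counts of all IDs were fitted with edgeR 4.0.16 (TMM, filterByExpr, quasi-likelihood, R 4.3.3), tested on simulated data, with DESeq2 1.42.0 as an alternative, Benjamini-Hochberg adjustment and a threshold of 0.05. The simulated data tested the fit with the filter alone, not the fit without it that gave the edgeR values of the 4 genes. Exact intervals are at 95% and cover counting error only, not the variation between libraries. They treat tags as independent, which tags amplified by PCR need not be. Over the 170 IDs that passed the filter, deviations from the genotype mean correlated at 0.14, 0.21 and 0.38 between same-numbered WT and DKO libraries. Libraries 1 and 2 correlated more across their numbers, WT replicate 1 with DKO replicate 2 at 0.29 and WT replicate 2 with DKO replicate 1 at 0.38. Each library numbered 3 correlated negatively with libraries 1 and 2 of the other genotype, at -0.37 to -0.26. The labels share the numbers but do not say what they mark, so a pairing by number is not established. The main tests did not use it, and the differences given within a number are descriptive.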

Additional observations from a re-analysis of the deposited data

How the results depend on the processing

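The sign of the Btg1, Btg2 and family-share differences was kept in every alternative run. Leaving out each library in turn gave DKO minus WT values of -142 to -97.5 CPM for Btg1, -198 to -59.0 for Btg2, -31 (without DKO replicate 2) to 239.6 for Tob1, -74.1 to -34.1 percentage points for the family share, and -4.08 to 29.6 nt for the Tob1 tail. Exact tests of this size cannot pass 0.05, so their p-values say nothing about stability. With untailed tags, Tob2 had 64.1 CPM more in DKO, from 1 tag. With the filter, 0 to 8 gene IDs were called by edgeR when 1 library was left out (8 of 241 without WT replicate 3). Dropping replicate 3 of both genotypes raised this to 33 of 241. Fewer libraries and more IDs entered there than in the main fit. Yet 0 of 243 were called without WT replicate 2, and 0 of 228 without DKO replicate 3. None of the 4 genes entered these filtered fits. Btg1, Btg2 and Tob1 were tested when replicate 3 of both genotypes was dropped and no filter was used. There 8 of 6078 IDs passed the threshold, and each of these genes had an adjusted p of 0.83. In the fit with a replicate block edgeR called 0 of 170 IDs, the mean differences of the 4 genes were unchanged by construction (Btg1 -119, Tob1 101 CPM), and no call changed. Alternatives not run were the count by gene span, for want of map positions, the limma fit of tail length at its tag minimums, and those on the deadenylation list.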
